A study of Homo sapiens with 6 samples.

Results

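The genes described here were the SR proteins, the heterogeneous nuclear ribonucleoproteins (hnRNPs), a group of other splicing regulators and the kinases of SR proteins. They were taken from a list of 48 gene symbols, and all 48 were found among the 58735 Ensembl genes of the deposited tables. The list held 14 SR proteins and SR-like proteins, 20 hnRNPs, 8 other regulators (*PTBP1*, *PTBP2*, *PTBP3*, *RBFOX2*, *CELF1*, *MBNL1*, *MBNL2* and *KHDRBS1*) and 6 kinases (*CLK1* to *CLK4*, *SRPK1* and *SRPK2*). RNA-seq was performed on SK-N-AS, an established human neuroblastoma cell line. They received a small interfering RNA that targets Prp19 (siPrp19) or a negative control (NC) and were collected after 72 h per the labels, a longer time than the study's methods state. No other treatment or genotype was named, and NC cells were transfected as well. The labels gave 3 NC and 3 siPrp19 libraries, and the methods described them as biological replicates. Prp19 is the splicing factor encoded by *PRPF19* and the core subunit of a complex that activates the spliceosome.

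SR proteins bind exonic enhancers through RNA recognition motifs and recruit the splicing machinery with their arginine-serine domains, which the CLK and SRPK kinases phosphorylate. Many hnRNPs bind exonic or intronic silencers and act against exon inclusion, and several of them also package, export or stabilise mRNA. Both families are known for controlling their own abundance. In many of them, excess protein promotes the inclusion of a poison exon, which carries a premature stop codon and sends the mRNA to nonsense-mediated decay (NMD).

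In the GENCODE 29 annotation, 34 of the 48 genes (70.8%) had at least 1 transcript classed as an NMD target, compared with 43.5% of the 11029 protein-coding genes tested. For 12 of the 48, the annotated premature stop lay in an internal exon that overlapped no exon of a protein-coding transcript. The following 5 stretches are shown as examples of what sets a decaying isoform apart from the productive one. *SRSF3*, *SRSF4* and *SRSF7* each had more than 1 such exon, of which 1 is shown. Each runs on the transcribed strand from the first base of the poison exon to its premature stop codon, which is in capitals (GRCh38).
SRSF3: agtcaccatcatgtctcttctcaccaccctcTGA
SRSF4: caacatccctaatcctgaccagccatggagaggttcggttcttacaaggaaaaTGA
SRSF6: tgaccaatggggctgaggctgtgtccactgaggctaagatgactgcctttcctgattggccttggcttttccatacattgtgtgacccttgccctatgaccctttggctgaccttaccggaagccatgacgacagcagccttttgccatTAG
SRSF7: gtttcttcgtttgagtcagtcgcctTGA
HNRNPL: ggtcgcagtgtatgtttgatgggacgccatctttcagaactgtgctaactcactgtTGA
The stretch of *SRSF3* lies at chr6:36599821-36599854 within an exon of 456 bases, that of *SRSF4* at chr1:29166009-29166064 (exon of 175 bases), and that of *SRSF6* at chr20:43459153-43459304 (exon of 268 bases). The stretch of *SRSF7* lies at chr2:38749319-38749346 (exon of 449 bases) and that of *HNRNPL* at chr19:38841624-38841682 (exon of 70 bases). The deposited values are sums over a whole gene in FPKM (fragments per kilobase of exon scaled to the size of the library), so productive and decaying isoforms cannot be told apart in them. Inclusion of these exons was not measured here. Exons of 17 of the 48 genes overlap exons of a gene on the opposite strand. As the strand setting of the counting was not given in the sources used here, the reads of such pairs cannot be told apart. Exons of 10 of the 48 overlap exons of a gene on the same strand, *HNRNPH2* among them, which no strand setting would separate. GENCODE 29 also lists at least 1 pseudogene named after 19 of the 48 genes, to which reads could have been lost.

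The knockdown was checked first with *PRPF19* itself, because the column names of the tables and the labels of the samples named opposite groups for 2 libraries. The *PRPF19* level was 83.0 FPKM in column NCa, 83.1 in NCb and 93.0 in NCc. It was 19.6 FPKM in siPrp19a, 19.1 in siPrp19b and 18.5 in siPrp19c. The library in column NCb is labelled siPrp19 (replicate 1) and the one in column siPrp19b is labelled NC (replicate 3), so *PRPF19* went against the label in both and followed the column name. All results below are therefore given for the 3 NC columns against the 3 siPrp19 columns, which goes against those 2 labels. The main counts of the 48 genes, the medians and the genes past the threshold are also given for 2 other groupings. These are the 4 libraries whose label and column agree (NCa and NCc against siPrp19a and siPrp19c) and the 6 libraries as labelled. Family sums, values by level and most other single genes are given for the columns only. *PRPF19* was 77.9% lower in the siPrp19 columns (log2 fold change -2.12 ± 0.07 SE, adjusted p = 0.000215, limma on log2(FPKM + 1)). In the 4 libraries the log2 fold change was -2.15 ± 0.14 (adjusted p = 0.0266), and as labelled it was -0.74 ± 0.73 (adjusted p = 0.9998). The p-value in the columns is no independent evidence for the column grouping, because *PRPF19* was the reason for putting that grouping first.

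The libraries held 14887132 to 19977811 recovered reads. They were unevenly spaced within groups. The read counts of NCa and NCb differed by a chi-square of 1.72 per degree of freedom and those of siPrp19b and siPrp19c by 2.59, whereas the other 13 pairs gave 18.0 to 46.7. P-values measure only the spread between these samples, and each group rests on a close pair and 1 library apart from it, NCc and siPrp19a. Mitochondrial genes held 8.29% of the reads in siPrp19a and 5.15% to 5.49% in the other 5 libraries. *HAND2*, a gene of the sympathetic lineage of neuroblastoma, was at 117 to 170 FPKM, while *TH* was at 0.312 to 0.662 FPKM. *VIM*, a gene of the mesenchymal state of neuroblastoma lines, was at 99.4 to 162 FPKM. The fibroblast gene *COL1A1* was at 348 to 401 FPKM. The leukocyte gene *PTPRC* was at 16.9 to 30.7 FPKM, being higher in each NC column than in each siPrp19 column, while *EPCAM* of epithelial cells was at 0.0462 to 0.176 FPKM. The part of these differences in the results below was not tested.

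**Figure D1:**
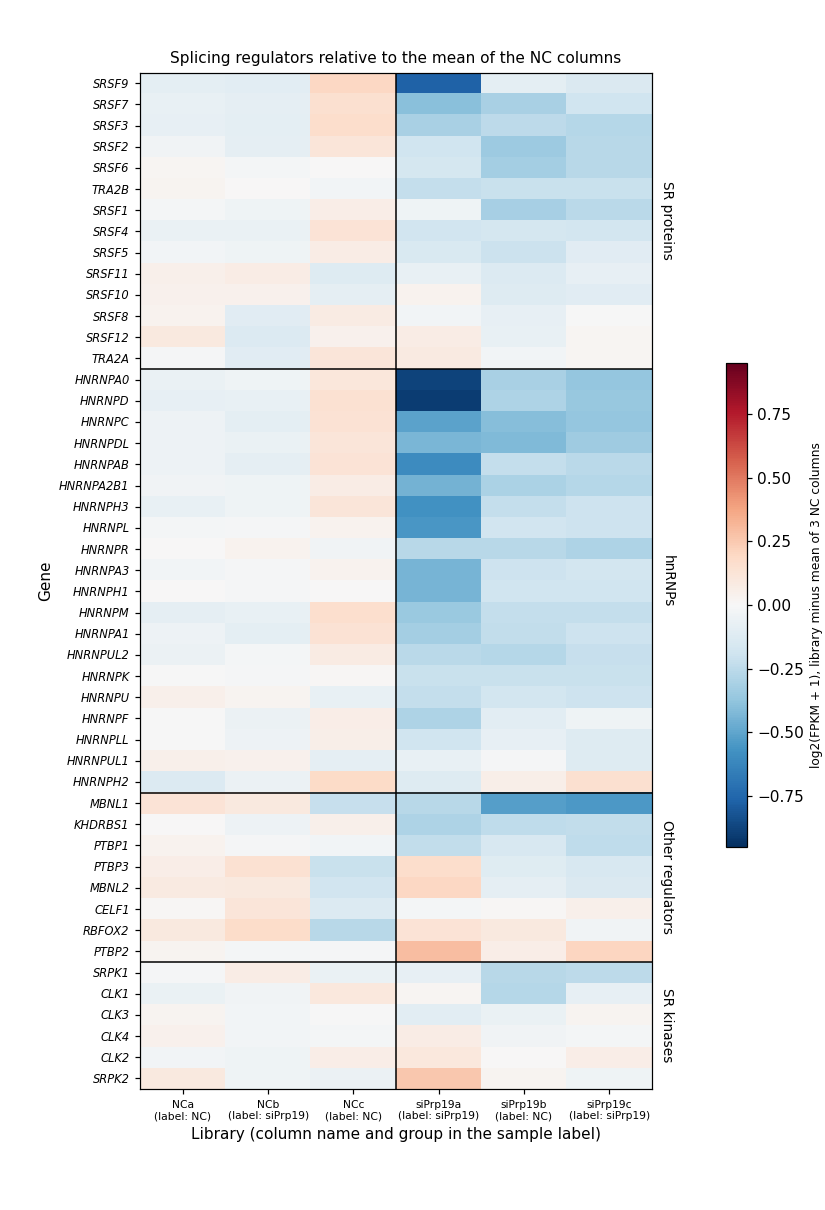
Level of the 48 genes in each library as log2(FPKM + 1) minus the mean of the 3 NC columns (colour scale), with genes in rows by family and libraries in columns with both their column name and their label. Most SR protein and hnRNP rows are blue across the siPrp19 columns, siPrp19a is the lowest library for 22 of the 48 genes, and the kinase rows are close to white.

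Most splicing regulators had lower levels in the siPrp19 columns, and the hnRNPs had the lowest median of the 4 families. The median log2 fold change was -0.21 over the 48 genes and -0.02 over all 13718 genes tested. The log2 fold change was below 0 for 39 of the 48, and for 44.9% to 76.9% of all genes in ranges of rising level. It was below 0 for 19 of 20 hnRNPs (median -0.27) and 12 of 14 SR proteins (median -0.19), but for only 5 of 8 other regulators (median -0.02) and 3 of 6 kinases (median -0.02), and the last 2 medians turned to 0.05 and 0.04 when scaled to the total of the recovered reads. Summed over the family, hnRNP transcripts amounted to 1474 ± 73.9 FPKM in the NC columns and 1213 ± 82.5 FPKM in the siPrp19 columns (SD, n = 3), which is 17.7% lower. The SR protein sum was 477 ± 25.6 FPKM and 410.4 ± 6.83 FPKM (13.9% lower). The sum of the other regulators was 10.8% lower and that of the kinases 2.27% lower. In the 4 libraries whose label and column agree, the family medians of the log2 fold change were -0.32 (hnRNPs), -0.19 (SR proteins), 0.07 (other regulators) and -0.02 (kinases). As labelled, these medians were -0.16, -0.05, 0.10 and 0.03. With bulk RNA, fewer cells of a type and less RNA per cell cannot be told apart.

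Past the threshold of an adjusted p of 0.05 over all genes, 3 of the 48 genes fell (*HNRNPC*, *HNRNPDL* and *HNRNPR*) and 0 rose. The background was 5.37% of all genes called lower and 2.57% called higher, so 3 of 48 genes is near the background. When a library was left out, the number was 6 without NCc (6.53% of all genes called lower) and 1 (*SRSF6*) without siPrp19a (5.21%). It was 0 without NCa (1.47%), NCb (1.80%), siPrp19b (1.57%) or siPrp19c (1.47%). At an unadjusted p under 0.05, 25 of the 48 genes were lower and 0 higher, against 14.4% of all genes lower, and they comprised 16 hnRNPs, 5 SR proteins, 3 other regulators and 1 kinase. The values of the siPrp19 columns lay wholly below those of the NC columns for 28 of the 48 genes (17 hnRNPs and 7 SR proteins), against 18.1% of all genes. They lay wholly above for 1 gene, *PTBP2*, against 13.2% of all genes. Without siPrp19a, 31 of the 48 were wholly lower (25.1% of all genes), and without NCc also 31 (26.1%).

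In the 4 libraries whose label and column agree, limma called 0 of the 48 genes, with a background of 0.0146% of genes lower and 0% higher, and 5 genes were lower at an unadjusted p under 0.05 (*HNRNPA0*, *HNRNPAB*, *HNRNPC*, *HNRNPD* and *HNRNPDL*), near the background of 7.86% of all genes. With voom, which models the recovered reads, 0 of the 48 were also called in these 4 libraries, against 1.71% of all genes lower and 0.598% higher. The log2 fold change was below 0 for 40 of the 48 genes, with a median of -0.21, and the values did not overlap for 32 genes that were lower, against 24.8% of all genes. As labelled, 0 of the 48 genes were called (limma, background 0%), 0 reached an unadjusted p under 0.05, and the median was -0.07.

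The size of this shift depended on the scaling between libraries. The library size implied by the FPKM values was not the total of the reads, and the ratio of total to implied size was 1.01 to 1.04 in the NC columns and 0.951 to 0.989 in the siPrp19 columns. Scaled to the total of the recovered reads, the median of the 48 genes was -0.13 while that of all genes was 0.04, and 33 of the 48 were below 0. With quantile normalization the median of the 48 was -0.10, all genes being at 0.01, and 35 of the 48 were below 0. Under quantile normalization the groups did not overlap for 16 of the 48 that were lower (14.5% of all genes), 11 of them hnRNPs. Under it the sign turned for *SRSF10*, *SRSF11*, *SRSF12*, *HNRNPF*, *HNRNPUL1*, *PTBP3*, *MBNL2* and *CLK4*, of which *HNRNPF* had the largest log2 fold change as deposited (-0.14, turning to 0.03). Among all called genes, the share of higher ones was 32.4% as deposited, 46.1% with quantile normalization and 51.8% when scaled to the total.

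**Figure D2:**
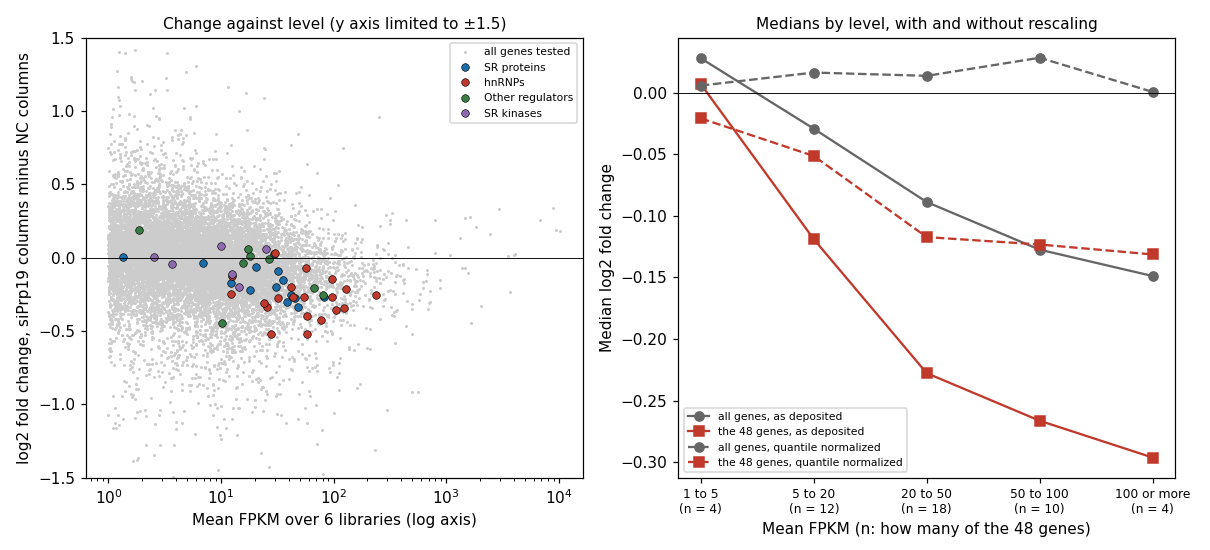
Left, log2 fold change (siPrp19 columns minus NC columns) against mean FPKM (log axis) for the 13718 genes tested, with the 48 genes coloured by family. Right, the median log2 fold change in 5 ranges of mean FPKM for all genes and for the 48, as deposited and after quantile normalization. The grey line of all genes descends with level from 0.03 to -0.15 as deposited and lies near 0 after quantile normalization, and the line of the 48 genes lies below it in every range.

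Level moved with the change as well. The median log2 fold change of all genes was 0.03 at a mean of 1 to 5 FPKM, -0.03 at 5 to 20, -0.09 at 20 to 50, -0.13 at 50 to 100 and -0.15 at 100 FPKM or more. The 48 genes were mostly abundant, with 32 of them at 20 FPKM or more. Within the ranges their medians were 0.01, -0.12, -0.23, -0.27 and -0.30, so the 48 lay below genes of like level by 0.15 or less on the log2 scale in every range. Of all genes, 44.9%, 56.3%, 69.0%, 75.7% and 76.9% were below 0 in these ranges. The shares wholly lower in the siPrp19 columns were 11.2%, 20.3%, 28.9%, 34.2% and 30.8%. Among the 48 genes, the wholly lower ones numbered 0 of 4, 6 of 12, 10 of 18, 8 of 10 and 4 of 4. No test was made of these medians or shares, and the part of the level in the result was not tested.

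Among the hnRNPs, the 3 genes past the threshold fell by 17.8% to 26.0%. *HNRNPC* encodes the protein that forms tetramers on nascent transcripts and binds uridine tracts. Its level was 85.0, 82.2 and 96.9 FPKM in NCa, NCb and NCc, and 61.6, 66.2 and 67.8 FPKM in siPrp19a, siPrp19b and siPrp19c. The groups did not overlap, and the mean went from 88.1 ± 7.8 to 65.2 ± 3.2 FPKM (SD, n = 3), a log2 fold change of -0.43 ± 0.09 (adjusted p = 0.0338). In the 4 libraries the log2 fold change was -0.48 ± 0.15 (adjusted p = 0.297). As labelled it was -0.22 (adjusted p = 0.9998).

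*HNRNPDL*, whose product is related to the AU-rich element binding protein of *HNRNPD*, was at 64.0, 63.3 and 71.8 FPKM in the NC columns and at 48.8, 49.4 and 52.2 FPKM in the siPrp19 columns. All siPrp19 columns were lower, by 24.5% on average, and the log2 fold change was -0.40 ± 0.08 (adjusted p = 0.0281). It was -0.42 ± 0.14 in the 4 libraries (adjusted p = 0.333) and -0.16 as labelled (adjusted p = 0.9998). *HNRNPR*, which encodes an RNA-binding protein close to that of *SYNCRIP*, was at 35.3, 36.2 and 34.4 FPKM in the NC columns and 29.2, 29.2 and 28.6 FPKM in the siPrp19 columns. Its spread within groups was the smallest of the 3 genes, and the log2 fold change was -0.27 ± 0.06 (adjusted p = 0.0410). It was -0.26 ± 0.12 in the 4 libraries (adjusted p = 0.464) and -0.07 as labelled (adjusted p = 0.9998).

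None of these 3 calls held under every setting. All 3 were lost when the values were scaled to the total of the reads (adjusted p = 0.0593, 0.0515 and 0.110 for *HNRNPC*, *HNRNPDL* and *HNRNPR*). They were also lost when the close library pairs were averaged to 1 value each (adjusted p = 0.303, 0.313 and 0.465). Leaving out any library other than NCc also lost all 3, with adjusted p-values up to 0.127, 0.127 and 0.170. *HNRNPR* alone was also lost with quantile normalization (-0.17, adjusted p = 0.212) and without the mean-variance trend (adjusted p = 0.0554). Voom called 6 of the 48, namely these 3 with *HNRNPA0*, *HNRNPA2B1* and *MBNL1*, against a background of 6.77% of genes lower.

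The promoters of the 3 genes that fell are shown because these were the genes past the threshold. Each runs from 250 bases before to 50 bases after the start of the gene on its own strand (RefSeq, GRCh38.p14), with matches to CCAAT and GGGCGG on either strand in capitals.
HNRNPC: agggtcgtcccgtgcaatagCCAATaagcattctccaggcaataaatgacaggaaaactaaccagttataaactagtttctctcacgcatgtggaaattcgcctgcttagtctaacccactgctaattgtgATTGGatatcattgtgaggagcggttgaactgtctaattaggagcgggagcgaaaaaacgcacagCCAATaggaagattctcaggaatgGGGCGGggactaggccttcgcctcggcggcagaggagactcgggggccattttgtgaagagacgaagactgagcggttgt
HNRNPDL: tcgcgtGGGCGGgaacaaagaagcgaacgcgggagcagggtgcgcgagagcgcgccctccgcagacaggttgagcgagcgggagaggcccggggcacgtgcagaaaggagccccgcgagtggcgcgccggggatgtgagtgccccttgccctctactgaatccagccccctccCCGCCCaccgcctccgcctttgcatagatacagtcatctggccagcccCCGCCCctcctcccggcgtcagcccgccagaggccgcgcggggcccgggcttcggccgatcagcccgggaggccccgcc
HNRNPR: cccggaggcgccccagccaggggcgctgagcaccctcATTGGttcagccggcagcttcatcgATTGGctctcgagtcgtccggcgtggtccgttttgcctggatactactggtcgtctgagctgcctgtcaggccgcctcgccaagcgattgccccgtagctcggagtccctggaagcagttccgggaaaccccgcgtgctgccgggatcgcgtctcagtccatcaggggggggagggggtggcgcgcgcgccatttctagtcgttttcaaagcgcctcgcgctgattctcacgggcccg
They lie at chr14:21269393-21269692, chr4:82430176-82430475 and chr1:23344235-23344534, all on the minus strand. The genes themselves span chr14:21209136-21269494, chr4:82422564-82430408 and chr1:23303771-23344336 in GENCODE 29. *HNRNPC* had 3 CCAAT matches and 1 GGGCGG match, *HNRNPDL* 0 and 3, and *HNRNPR* 2 and 0, so the 3 promoters shared neither motif. CCAAT was in 17 of the 44 promoters found for the 48 genes (38.6%) and in 35.7% of all 27305 promoters. GGGCGG was in 31 of the 44 (70.5%) and in 44.6% of all, where the GC content was 66.3% at the median of the 44 and 58.3% at that of all. TATAAA was in 5 of the 44 (11.4%) and in 11.95% of all. CCAAT and GGGCGG can share bases at their ends, which did not happen in these 3 promoters, and a match is a description of letters, not of a bound site.

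**Figure D3:**
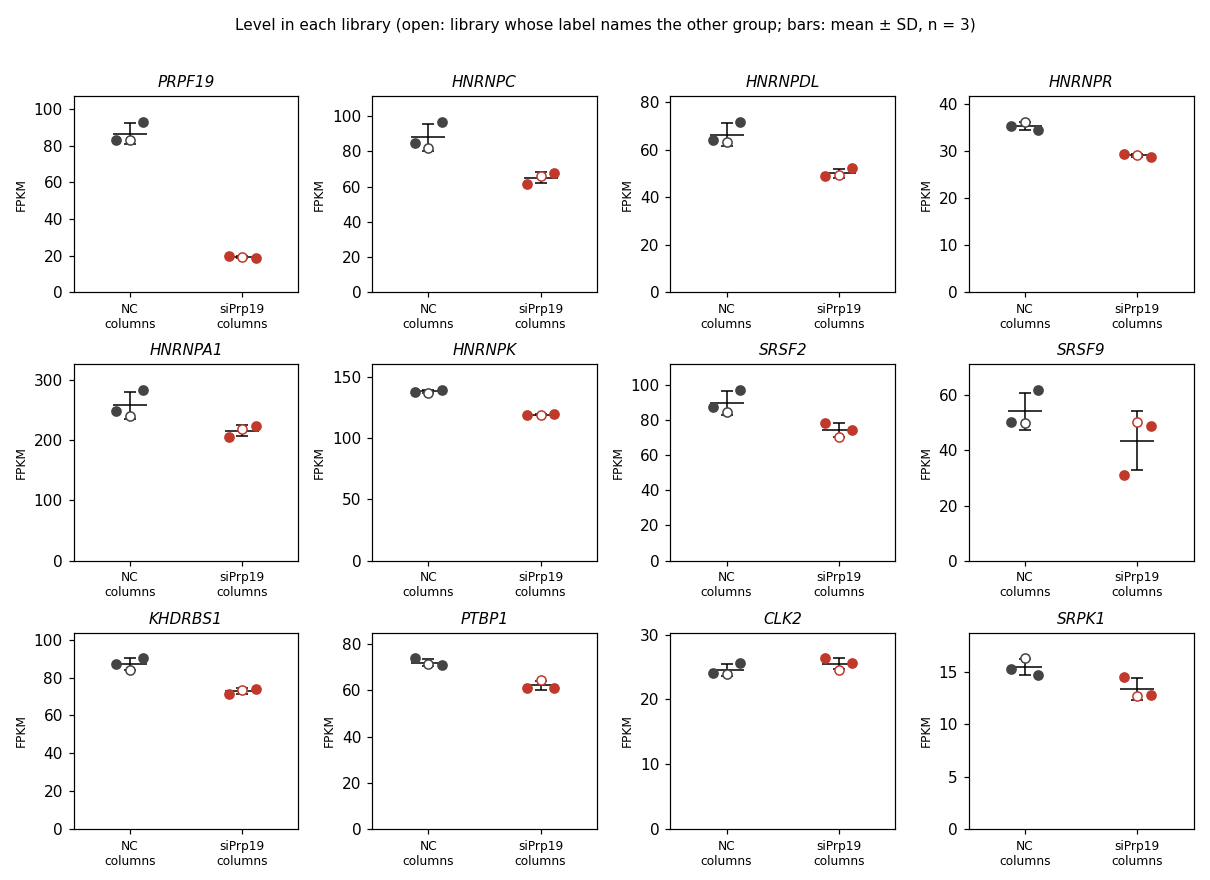
FPKM in each library for *PRPF19*, the 3 genes past the threshold and the 2 most abundant genes of each family (axes start at 0), with the 3 NC columns in grey, the 3 siPrp19 columns in red, and open circles for the library of each group whose label names the other group. Bars give the mean ± SD (n = 3). The open circles lie with the filled ones of their column group in *PRPF19* and *HNRNPC*, whereas in *SRSF9* and *CLK2* the column groups overlap.

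The 2 most abundant hnRNPs were *HNRNPA1* and *HNRNPK*. *HNRNPA1*, a classical splicing repressor, was at 249, 241 and 283 FPKM in the NC columns and at 205, 218 and 224 FPKM in the siPrp19 columns. The groups did not overlap, but the log2 fold change of -0.25 ± 0.10 did not pass (adjusted p = 0.176), and GENCODE 29 lists 74 pseudogenes named after it that could share its reads. *HNRNPK*, a poly(C)-binding protein, was at 138, 137 and 139 FPKM in the NC columns and at 119, 119 and 119 FPKM in the siPrp19 columns. Replicates lay within 1.03 FPKM (SD) of their mean, and a log2 fold change of -0.21 ± 0.07 was obtained (adjusted p = 0.116). It went to -0.03 with quantile normalization.

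The largest log2 fold changes of the family belonged to *HNRNPA0* and *HNRNPD*, both of which bind AU-rich elements. In both genes siPrp19a was the lowest library. *HNRNPA0* had a log2 fold change of -0.52 ± 0.15 (adjusted p = 0.0922) with 17.4 FPKM in siPrp19a, 26.2 in siPrp19b and 25.2 in siPrp19c, where the NC columns were at 31.3 to 35.4 FPKM. *HNRNPD* had -0.52 ± 0.17 (adjusted p = 0.114) with 36.0, 55.2 and 52.9 FPKM against 64.5 to 75.3 FPKM. Without siPrp19a the values were -0.34 (adjusted p = 0.0606) for *HNRNPA0* and -0.33 (adjusted p = 0.0971) for *HNRNPD*. siPrp19a was the lowest library for 15 of the 20 hnRNPs and NCc the highest for 17. *HNRNPA2B1*, the partner of *HNRNPA1* in the core particle, had a log2 fold change of -0.34 ± 0.09 (adjusted p = 0.0578). The smallest differences were those of *HNRNPUL1* (-0.07) and *HNRNPH2* (0.03), whose groups overlapped. The other 10 hnRNPs had log2 fold changes from -0.36 (*HNRNPAB*) to -0.13 (*HNRNPLL*), and among these 10 only *HNRNPF* had overlapping groups.

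Of the 14 SR proteins, 0 passed the threshold with limma, the smallest adjusted p being 0.0708, 0 passed with voom, and 5 had an unadjusted p under 0.05. *SRSF2*, which binds exonic enhancers and was the most abundant of them, was at 87.5, 84.4 and 97.03 FPKM in the NC columns and at 78.2, 70.1 and 74.6 FPKM in the siPrp19 columns. The groups did not overlap, and the log2 fold change was -0.27 ± 0.09 (adjusted p = 0.114). *SRSF9*, the next in level, was at 50.4, 50.1 and 61.9 FPKM in the NC columns and at 31.2, 50.4 and 48.9 FPKM in the siPrp19 columns. Its groups overlapped, with siPrp19a alone far below the rest, and the log2 fold change was -0.33 ± 0.19 (adjusted p = 0.348).

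The SR proteins with the smallest adjusted p were *TRA2B* and *SRSF6*. *TRA2B*, a splicing activator without a classical SR protein layout, had a log2 fold change of -0.22 ± 0.06 (adjusted p = 0.0708) and 19.5 ± 0.41 against 16.6 ± 0.096 FPKM (SD, n = 3). Its paralog *TRA2A* had a log2 fold change of 0.03 ± 0.08 with overlapping groups. *SRSF6* had -0.25 ± 0.07 (adjusted p = 0.0745) and was the only one of the 48 genes called when siPrp19a was left out (adjusted p = 0.0474). Among the other genes with a poison exon shown above, the log2 fold change was -0.28 for *SRSF3*, -0.17 for *SRSF4*, -0.30 for *SRSF7* and -0.31 for *HNRNPL*, none past the threshold. Of the remaining genes of this family, *SRSF1* had -0.20, *SRSF5* -0.15, *SRSF11* -0.09, *SRSF10* -0.07, *SRSF8* -0.04 and *SRSF12* 0.01, also none past the threshold. The median was -0.21 over the 34 genes with an annotated NMD transcript and -0.20 over the 14 without.

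Of the other regulators, 0 of 8 passed the threshold with limma, 3 had an unadjusted p under 0.05 and their values went both ways. *KHDRBS1* (Sam68, a signalling-responsive RNA-binding protein) was at 87.3, 84.2 and 90.1 FPKM in the NC columns and at 71.0, 73.6 and 74.0 FPKM in the siPrp19 columns, with a log2 fold change of -0.26 ± 0.07 (adjusted p = 0.0721). *PTBP1*, the polypyrimidine tract binding repressor of neuronal exons, was at 73.8, 71.3 and 70.8 FPKM in the NC columns and at 61.1, 64.6 and 60.8 FPKM in the siPrp19 columns, with -0.21 ± 0.07 (adjusted p = 0.115). In both genes the groups did not overlap. *PTBP2*, its neuronal paralog, was at 1.75, 1.67 and 1.68 FPKM in the NC columns and at 2.30, 1.82 and 2.11 FPKM in the siPrp19 columns, with 0.19 ± 0.10 (adjusted p = 0.298). *MBNL1*, a muscleblind protein that controls developmental exons, had a log2 fold change of -0.44 ± 0.12 (adjusted p = 0.0753), and its paralog *MBNL2* had -0.01 ± 0.12. *MBNL1* was the only one of the 8 past the threshold with voom (adjusted p = 0.0361). The Fox family gene *RBFOX2* had 0.06 ± 0.12, *CELF1*, whose product binds GU-rich elements, had 0.01 ± 0.08, and *PTBP3* had -0.03 ± 0.12, all with overlapping groups.

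Of the 6 kinases, 0 passed the threshold with limma (smallest adjusted p = 0.180) or voom, and 1 had an unadjusted p under 0.05. *CLK2* was at 24.1, 23.9 and 25.6 FPKM in the NC columns and at 26.3, 24.6 and 25.7 FPKM in the siPrp19 columns, the groups overlapping, with a log2 fold change of 0.06 ± 0.07 (adjusted p = 0.661). *SRPK1*, which phosphorylates SR proteins in the cytoplasm, was at 15.3, 16.3 and 14.7 FPKM in the NC columns and at 14.5, 12.6 and 12.8 FPKM in the siPrp19 columns, with a log2 fold change of -0.20 ± 0.08. Its groups did not overlap, but siPrp19a was just below NCc. The other 4 kinases had log2 fold changes from -0.11 (*CLK1*) to 0.08 (*SRPK2*), with overlapping groups.

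**Figure D4:**
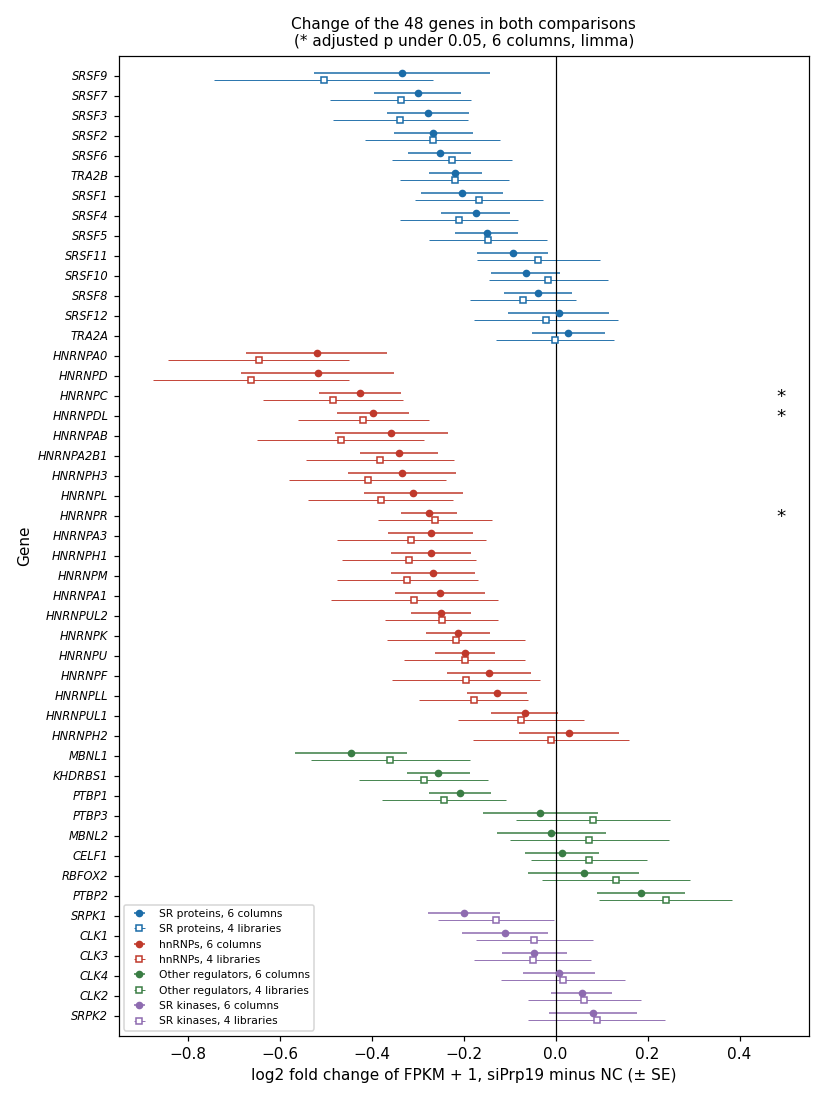
Log2 fold change of FPKM + 1 (siPrp19 minus NC) with its SE for the 48 genes by family, with filled circles for the 3 NC against the 3 siPrp19 columns and open squares for the 4 libraries whose label and column agree, and asterisks for the 3 genes past the threshold in the former. The circles of hnRNPs run from -0.52 to 0.03 and those of kinases from -0.20 to 0.08, and the SE is wider with 4 libraries.

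A further 108 genes of splicing regulation outside the 48 were examined, of which 87 passed the filter on low values. In the columns, 8 of the 87 were called lower and 1 higher, against the background of 5.37% and 2.57%, and their median log2 fold change was -0.11. *QKI*, a STAR family RNA-binding protein, fell from 6.55 ± 0.61 to 2.44 ± 0.06 FPKM (log2 fold change -1.13 ± 0.08, adjusted p = 0.00182). *YBX1*, an abundant cold-shock domain protein, fell from 643 ± 64.8 to 343 ± 55.8 FPKM (-0.91 ± 0.15, adjusted p = 0.0169). Smaller falls were found for *LUC7L2* of the U1 particle (-0.52), *KHSRP* (-0.42), *FUBP3* (-0.39), *RBMX* (-0.38), *SYNCRIP* (-0.32) and *TNPO3* (-0.31), the importer of SR proteins, which is named after its value was seen, with adjusted p-values of 0.0204 to 0.0403. The kinase gene *DYRK1B* rose from 7.16 ± 0.52 to 9.46 ± 0.25 FPKM (0.36 ± 0.07, adjusted p = 0.0281). In the 4 libraries and as labelled, limma called 0 of the 87 genes. An unadjusted p under 0.05 was reached by 15 and 0 of them, against 1685 and 191 of all 13718 genes. With voom in the 4 libraries, *QKI* (adjusted p = 0.00111), *YBX1* (0.0131), *KHDRBS3* (0.0360) and *LUC7L2* (0.0391) were called lower. The background of voom there was 1.71% of all genes lower and 0.598% higher.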

How the data were processed

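The 6 libraries were made from total RNA of SK-N-AS cells. The submitters' processing notes name HISAT2 2.0.5, featureCounts 1.5.0-p3 and the build hg38, and strandedness was not given in the sources used here. The authors deposited gene-level FPKM values. Gene identifiers were matched to GENCODE 29, where 58735 of 58735 were found, and the merged exon lengths gave back whole reads for 100% of the values above 0 (tolerance of 0.1 read). The read totals, 14887132 to 19977811 reads, limit the precision of weak genes and cover counting error only.

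Genes with a mean of at least 1 FPKM were kept (13718, all 48 listed genes among them). Values were taken as log2(FPKM + 1), which understates the change of weak genes, and fitted with limma 3.58.1 in R 4.3.3 (moderated test, mean-variance trend, Benjamini-Hochberg adjustment over all genes tested). The procedure was tested on simulated data. The listed genes, their families, the further list of 108 genes and the comparisons were chosen with earlier results of these data known. Values per library are given for genes past the threshold and for the 2 most abundant genes of each family. Other genes were named for their rank within a family, for a role beside a named paralog, or after their values were seen.

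Other settings tried were a pseudocount of 0.1, no filter, quantile normalization, rescaling to the same sum, no trend, voom on the recovered reads, blocks, averaging of close library pairs and leaving out each library. Scaling to the total of the recovered reads was added after the data were examined. Promoters were found in RefSeq for 44 of the 48 genes, and protein sequences were not used here. Figures were drawn with matplotlib 3.10.9 in Python 3.11.15 from tables made with numpy 2.4.6 and pandas 2.3.3.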

Additional observations from a re-analysis of the deposited data

How the results depend on the processing

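The 3 genes called lower in the columns (*HNRNPC*, *HNRNPDL* and *HNRNPR*) became 0 without the filter on low values, 0 when rescaled to the same sum, 0 when scaled to the total of the recovered reads, 0 with close pairs averaged, 2 with quantile normalization or without the mean-variance trend (*HNRNPC* and *HNRNPDL* in both), 6 with voom, and 0 to 6 when a library was left out (6 without NCc, 1 without siPrp19a, 0 for each of the other 4). The cause was not tested. The median log2 fold change of the 48 genes in the columns went from -0.21 to -0.10 with quantile normalization and to -0.13 when scaled to the total of the reads, and ranged from -0.22 to -0.19 when a library was left out. In the 4 libraries it went from -0.21 to -0.067 with quantile normalization and -0.14 when scaled to the total. In the columns, the median of the 48 and the log2 fold changes of the 25 genes with an unadjusted p under 0.05 stayed below 0 under every alternative run there. The median of the other regulators ranged from -0.12 to 0.06 and that of the kinases from -0.03 to 0.04 over these alternatives. All genes called were 1089 in the columns as deposited, 512 without the filter, 651 when rescaled to the same sum, 1398 with voom, 2 with close pairs averaged and 253 to 1354 when a library was left out. In the 4 libraries 2 genes were called, 316 with voom, and 0 to 70 when a library was left out. *PRPF19* in the 4 libraries kept its direction, with an adjusted p of 0.286 without the filter, 0.113 without NCa and 0.242 without NCc.

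The replicate numbers of the labels did not pair all of the samples. Number 1 joined NCa and NCb and number 3 joined siPrp19b and siPrp19c, the close pairs (chi-square of 1.72 and 2.59 per degree of freedom). Number 2 joined NCc and siPrp19a, which lay far apart (46.7). By column name, numbers 1 and 3 each joined 2 libraries of the same group. Deviations from the means of the label groups correlated at 0.39, -0.17 and 0.32 for label numbers 1, 2 and 3. Taken from the means of the column groups, the same pairs correlated at -0.12, -0.20 and -0.08. Pairs by the letters of the columns, also from the means of the column groups, correlated at 0.13, -0.05 and 0.20. The 2 replicate blocks were fitted to different groupings. With the groups as labelled and the label number as block, 0 of the 48 genes were called and the median was -0.07. Both values were the same without the block. With the groups of the columns and the column letter as block, 3 of the 48 were called lower (*HNRNPC*, *HNRNPDL* and *MBNL1*). The median was -0.21, and it was the same without the block, where *HNRNPR* was called in place of *MBNL1*. Dixon's test for outlying samples was not applied.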
